A study of Mus musculus with 2 samples.

Results

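Tight junctions seal the space between neighbouring epithelial cells, and 9 genes of this structure were followed in back skin at an age of 10 days in mice: the claudins Cldn1, Cldn3, Cldn4, Cldn5, Cldn7 and Cldn8, the occludin gene Ocln, the scaffold gene Tjp1 and the adhesion molecule gene F11r. They were chosen by name, and all 16 probe sets that the platform annotation gives to these symbols were kept, of 22690 probe sets and 12393 named genes in all. The skin came from transgenic mice whose keratinocytes carry the aryl hydrocarbon receptor (AhR) in a constitutively active form, or from their non-transgenic wild-type littermates. The transgenic sample is titled K14Ahr, and the labels name no promoter beyond that title, no line or founder number and no strain. Total RNA of whole skin pieces was labelled with biotin and hybridised to 1 array per genotype, and the labels leave unstated how many animals contributed to an array. With 2 arrays there is no replicate error and no test, and every difference below is a difference between these 2 arrays.

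AhR is a transcription factor that is switched on by dioxins and similar ligands, and its constitutively active form needs none. In the epidermis, tight junctions lie in the granular layer, below the cornified layer, and form a barrier to water and solutes. Claudins are the membrane proteins that form the strands and decide which ions pass. Occludin and the junctional adhesion molecules accompany them, and the zonula occludens scaffolds tie the strands to the actin cytoskeleton. Mice without claudin-1 are known to lose water through the skin and die soon after birth.

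The values are probe set signals in arbitrary units, which the authors had scaled before deposit. A signal was taken as measured above a floor of 34.7, the 40th percentile of all signals, and differences are given as log2 ratios, transgenic divided by wild type, so that a negative value is a lower signal in transgenic skin. Probe sets differ in how brightly they report a transcript, so a signal says whether a gene was read above the floor and does not rank genes by transcript level. The known AhR target Cyp1a1, a xenobiotic-metabolising enzyme, read 1802 in transgenic skin against 40.8 in wild-type skin. The median log2 ratio of the 8894 measured genes was -0.05, with a 5th percentile of -0.64 and a 95th percentile of 0.70.

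Most claudin signals above the floor, and the occludin signal, were modestly lower in transgenic skin, and none of the 8 genes above the floor differed by 2-fold. Of 12 probe sets above the floor on 1 array or both, 11 read lower in transgenic skin, against 56.4% of all measured probe sets, and 1 read higher. At least 1.5-fold lower were 3 of the 12, 2 of Cldn3 and 1 of Cldn8, against 6.36% of all measured probe sets. Among the 11 and the 3 is Cldn3 probe set 1426332_a_at, above the floor in wild-type skin only, which could therefore only come out lower. Probe sets of the same gene are repeat readings, and of the 12, 4 are of Cldn3 and 2 of Cldn1. By gene, each taken at its brightest probe set, 7 of 8 measured members were lower, against 56.4% of all measured genes. After centring on the median of all genes 6 of 8 were lower, and F11r moved to 0.003. The median of all measured genes was then 0.0018, so the 56.4% is no background for that count. The median log2 ratio of the 8 was -0.35, with a range from -0.995 for Cldn8 to 0.10 for Cldn5. The share of all measured genes as low or lower was 1.15% for Cldn8, 7.08% for Tjp1, 13.6% for Cldn3 and 16.6% for Ocln. It was 18.3% for Cldn1, 22.1% for Cldn4, 50.3% for F11r and 67.9% for Cldn5, so most members lay within the bulk of all genes. No member was at least 2-fold lower, against 1.09% of all measured genes, and none was at least 2-fold higher, against 2.27%. At a limit of 1.5-fold 1 member, Cldn8, was lower, against 6.38% of all measured genes, and none was higher, against 6.8%. In whole skin, fewer cells of a type and less RNA per cell cannot be told apart.

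**Figure D1:**
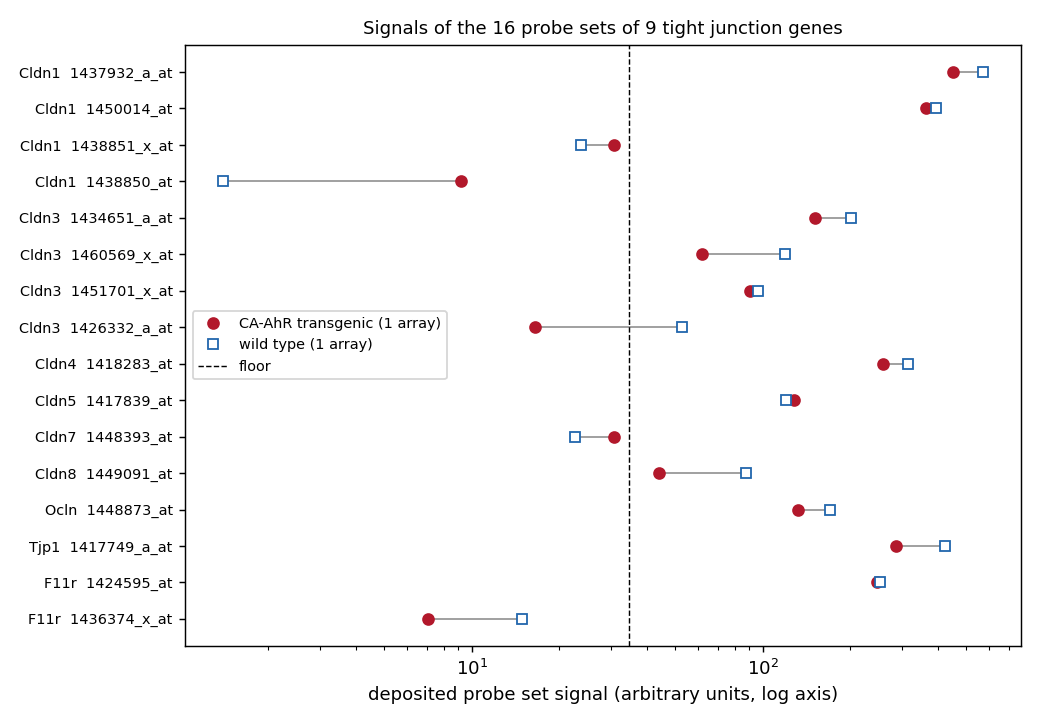
Deposited signal (log axis, arbitrary units) of each of the 16 probe sets in transgenic skin (filled circles) and wild-type skin (open squares), with the floor of 34.7 as a dashed line. Most pairs above the floor have the circle left of the square, and 4 probe sets lie below the floor on both arrays.

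Cldn1, the claudin on which the epidermal water barrier depends, was read above the floor by 2 of its 4 probe sets. Probe set 1437932_a_at read 451 in transgenic skin and 569.7 in wild-type skin, 1.26-fold lower (log2 ratio -0.34). Probe set 1450014_at read 363 in transgenic skin and 395 in wild-type skin, a log2 ratio of -0.12. Both were lower in transgenic skin, and they differed from each other by 0.21. That is the size of the typical disagreement on these arrays: over 2535 genes with 2 probe sets measured on both arrays, the median absolute difference between their log2 ratios was 0.21 and the 95th percentile was 0.73. The other Cldn1 probe sets lay below the floor, 1438851_x_at at 30.8 (transgenic) and 23.8 (wild type) and 1438850_at at 9.2 (transgenic) and 1.4 (wild type). When the floor was lowered to the 20th percentile, 1438851_x_at had a log2 ratio of 0.37, opposite in direction to the 2 measured probe sets.

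Cldn3, a barrier-forming claudin that serves, like Cldn4, as a receptor for a clostridial enterotoxin, was lower on all 4 of its probe sets. The brightest, 1434651_a_at, read 151 in transgenic skin against 200.4 in wild-type skin, 1.32-fold lower (log2 ratio -0.41). Probe set 1460569_x_at read 62.1 (transgenic) against 119 (wild type), a log2 ratio of -0.94, while 1451701_x_at read 90.1 (transgenic) against 96.5 (wild type), a log2 ratio of -0.10. The fourth, 1426332_a_at, read 16.5 in transgenic skin, below the floor, against 53.0 in wild-type skin, so its log2 ratio is at most -0.61. When the floor was lowered to the 20th percentile both of its signals were measured, and the ratio was -1.68, past 2-fold, and with no floor but a pseudocount of 16 added it was -1.09, also past 2-fold. The 4 agreed on the direction, and their log2 ratios spread over at least 0.84. All of them carry a letter in the name, where a marks several transcripts of one gene and x marks possible binding of unrelated transcripts.

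Cldn4, whose product tightens paracellular sodium passage in epithelia, had 1 probe set. It read 258 in transgenic skin and 316 in wild-type skin, 1.22-fold lower (log2 ratio -0.29). Cldn4 and Cldn3 are direct neighbours on chromosome 5 in the mouse assembly GRCm38.p6, with no protein-coding gene between them, and Cldn13 lies 1 protein-coding gene beyond Cldn4. Cldn13 read 30.5 in transgenic skin, below the floor, against 46.4 in wild-type skin, a log2 ratio of at most -0.42. All 3 neighbouring genes thus read lower in transgenic skin, as did 56.4% of all measured genes. Their signals ran from 30.5 to 258 there and from 46.4 to 316 in wild-type skin. Cldn13 was above the floor in wild-type skin only, so it could only come out lower. Any link between the position of these genes and their differences was not tested.

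Cldn8, a claudin known in mouse kidney for limiting cation passage in the distal nephron, showed the largest difference among the 8 measured genes. Its 1 probe set read 44.0 in transgenic skin and 87.7 in wild-type skin, 1.99-fold lower (log2 ratio -0.995, just under the 2-fold limit). Of all measured genes 1.15% had a log2 ratio as low or lower. The transgenic signal was close to the floor, and when the floor was raised to the 60th percentile of all signals, the difference became a bound, at most -0.31.

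Cldn5 was slightly higher, and Cldn7 was not measured at the floor used. Cldn7, a claudin of simple epithelia such as gut and kidney tubules, was below the floor on both arrays, at 30.9 (transgenic) and 22.6 (wild type), so no ratio is given at that floor; when the floor was lowered to the 20th percentile its log2 ratio was 0.45. Cldn5, the main claudin of blood vessel endothelium, read 129 in transgenic skin against 120 in wild-type skin, 1.07-fold higher (log2 ratio 0.10), the only one of the 8 measured members above 0. The endothelial markers beside it had a median log2 ratio of -0.08 over 12 measured genes of 15, 5 above 0 and 7 below (-0.08 to -0.01 over the scalings tried). Their summed signal was 847 in transgenic skin and 784.5 in wild-type skin. They ran from Plvap, a gene of endothelial diaphragms (83.9 in transgenic skin, with wild-type skin below the floor, at least 1.27), and the growth factor receptor gene Kdr (0.65) down to Robo4 (-0.20) and the angiopoietin receptor gene Tek (at most -0.54). Erg, Tie1 and Vwf lay below the floor on both arrays. The part of vessel content in the Cldn5 signal was not tested.

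Among the 3 members that are not claudins, Tjp1, which encodes the scaffold protein ZO-1, had the lowest ratio. Its 1 probe set, which reads several Tjp1 transcripts, gave 287.5 in transgenic skin and 424 in wild-type skin, 1.47-fold lower (log2 ratio -0.56), and 7.08% of all measured genes were as low or lower. Ocln, which encodes the tetraspan membrane protein occludin, read 132 in transgenic skin and 170.0 in wild-type skin, 1.28-fold lower (log2 ratio -0.36). F11r, which encodes the immunoglobulin-family adhesion molecule JAM-A, read 246 in transgenic skin and 254 in wild-type skin, a log2 ratio of -0.045, close to the median of all genes. The second F11r probe set was under the floor, at 7.1 (transgenic) and 14.9 (wild type). Tjp1 and Ocln were thus lower while F11r read nearly alike on both arrays.

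**Figure D2:**
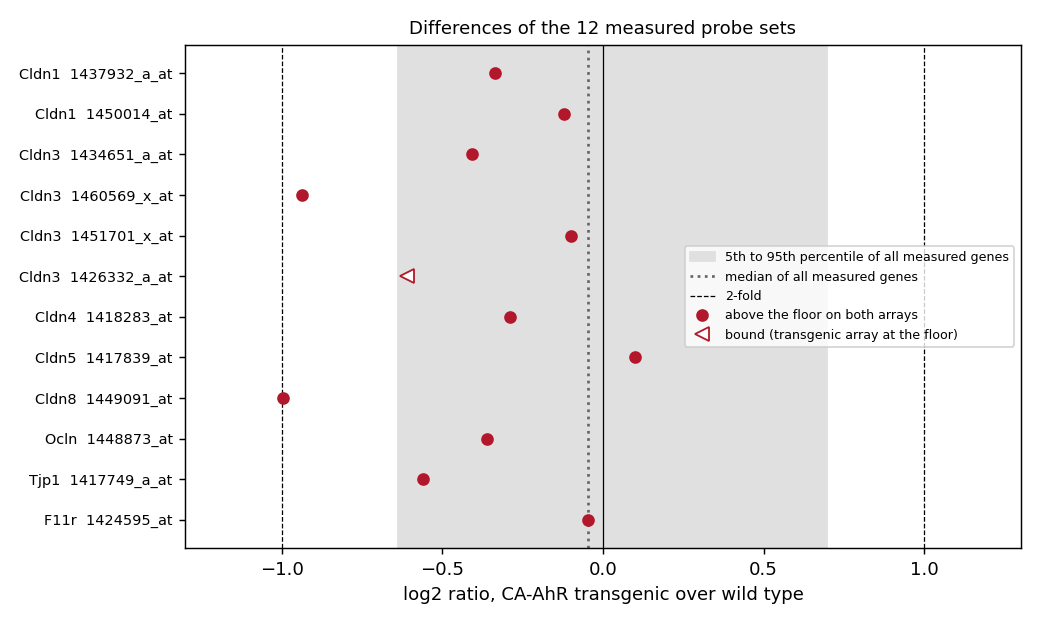
Log2 ratio, transgenic over wild type, for the 12 member probe sets above the floor on 1 array or both. The open triangle is a bound, the shaded band spans the 5th to the 95th percentile of all measured genes, from -0.64 to 0.70, and the dashed lines mark 2-fold; the Cldn8 and 1460569_x_at Cldn3 probe sets lie left of the band, at -0.995 and -0.94.

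The promoters of the members were searched for the AhR binding core because the transgene is an active AhR. RefSeq windows of GRCm38.p6, from 250 bases before to 50 bases after a gene's start, were at hand for 8 of the 9 members, in 10 windows, and Cldn8 had no entry. The core GCGTG stood on either strand in 7 of the 10 windows, of 5 genes (Cldn4, Cldn7, F11r, Ocln and Tjp1), against 32.4% of 32851 windows in the whole table. The 2 Ocln windows among the 7 overlap and share 1 core, so that site is counted in both. The longer form TNGCGTG, which contains the core, stood in 3 windows, 1 of Tjp1 and 2 overlapping ones of Ocln that share the site, against 5.07% of all windows. The windows of Cldn1, Cldn3 and Cldn5 held neither. The window of the known AhR target Cyp1a1, far higher in transgenic skin, held 1 core and not the longer form. The core is made mostly of G and C, and the members' windows held 52% to 68% of these bases, against a median of 52.7% over all windows. Members with the core included the nearly level F11r as well as the lower Tjp1, and members without it included the lower Cldn1 and Cldn3 as well as Cldn5. A match is only a run of letters, and AhR binding was not measured.

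The windows of the 3 lower genes with a core are shown so that its place can be seen. Capitals mark the core GCGTG or its reverse complement CACGC. Tjp1 is on the minus strand at chr7:65371195-65371494 and has a core that begins 2 bases before the start and runs across it. Ocln is on the minus strand at chr13:100552669-100552968 and has the reverse complement 119 bases before and 40 bases after the start. Cldn4 is on the minus strand at chr5:134946885-134947184 and has the core 209 bases before the start.
Tjp1: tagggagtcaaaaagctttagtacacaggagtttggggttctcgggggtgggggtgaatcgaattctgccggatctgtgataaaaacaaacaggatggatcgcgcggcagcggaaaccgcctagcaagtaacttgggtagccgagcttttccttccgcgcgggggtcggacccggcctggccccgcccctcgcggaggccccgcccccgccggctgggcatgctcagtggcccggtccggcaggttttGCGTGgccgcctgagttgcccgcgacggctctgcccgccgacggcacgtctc
Ocln: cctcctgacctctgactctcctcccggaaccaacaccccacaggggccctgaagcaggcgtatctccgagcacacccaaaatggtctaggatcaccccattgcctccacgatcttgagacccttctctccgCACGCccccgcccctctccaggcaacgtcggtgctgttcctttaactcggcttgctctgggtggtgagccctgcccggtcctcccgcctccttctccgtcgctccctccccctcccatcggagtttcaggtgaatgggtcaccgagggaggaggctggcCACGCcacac
Cldn4: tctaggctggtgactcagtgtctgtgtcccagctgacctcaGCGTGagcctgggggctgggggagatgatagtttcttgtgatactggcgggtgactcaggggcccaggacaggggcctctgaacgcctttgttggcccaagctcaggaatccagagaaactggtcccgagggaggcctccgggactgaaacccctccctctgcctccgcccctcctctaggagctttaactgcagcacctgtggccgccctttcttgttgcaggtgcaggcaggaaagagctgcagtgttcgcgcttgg

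Among the other claudins, 7 of the 12 on the array lay above the floor on 1 array or both, with signals from 30.5 to 72.2 in transgenic skin and from 39.0 to 145 in wild-type skin. Of these 5 were lower and 2 higher, with a median log2 ratio of -0.25. Cldn10, whose product forms ion-selective channels in kidney and glands, was 2.01-fold lower (72.2 in transgenic skin against 145 in wild-type skin, log2 ratio -1.01), by a probe set that can bind more than 1 transcript. It was the 1 claudin past 2-fold, and it was short of that limit after centring, with quantile or lowess scaling and with a pseudocount of 16. Cldn18 (-0.44), Cldn14 (-0.25) and Cldn23 (-0.20) were lower too, as was Cldn13 above. Cldn2 (0.41) and Cldn15 (0.28), both genes of cation channels in other epithelia, were higher. Cldn6, Cldn9, Cldn11, Cldn16 and Cldn19 lay below the floor on both arrays, among them Cldn16, the direct neighbour of Cldn1 on chromosome 16.

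The remaining tight junction genes lay around equality. Of 9 measured genes of other tight junction membrane proteins none differed by 2-fold, with a median of -0.04 (0.006 after centring). Cxadr, a receptor for coxsackie and adenoviruses that sits at the junction (0.39), and Esam, an endothelial adhesion molecule gene (0.14), were highest, and Clmp (-0.15) and the tricellulin gene Marveld2 (at most -0.44) were lowest. Of 16 measured scaffold and polarity genes none differed by 2-fold, with a median of 0.06 (-0.02 over 19 genes when the floor was lowered to the 20th percentile). The atypical protein kinase C gene Prkcz (0.30) was highest, and the polarity genes Pard6b (-0.28) and Patj (-0.64) were lowest. Tjp3, the other zonula occludens gene on the array, was below the floor on both arrays, at 25.7 (transgenic) and 31.5 (wild type).

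The junctions that lie beside tight junctions showed medians nearer 0 than the 9 genes did, a difference that could not be tested. The 11 measured adherens junction genes had a median of -0.05 (0.003 after centring), with the E-cadherin gene Cdh1, outside the naming rule, at 613 in transgenic skin and 607 in wild-type skin. The actin linkers Vcl (0.40) and Lima1 (0.37) were highest, and Nectin4 (-0.27) and Ctnnd1, the gene of the cadherin-stabilising p120 catenin (-0.83), lowest. The 12 measured desmosome genes had a median of -0.09 (0.006 over 11 genes when the floor was raised to the 60th percentile), with Pkp1 (0.42) and Perp (0.38) highest and the desmosomal cadherin genes Dsg2 (-0.35) and Dsc2 (-1.32) lowest. Dsc2, at 245 in transgenic skin against 612 in wild-type skin on the brighter of its 2 probe sets, was the 1 gene of both lists past 2-fold. When probe sets with a letter suffix were left out, Dsc2 was read by its other probe set and fell short of 2-fold.

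**Figure D3:**
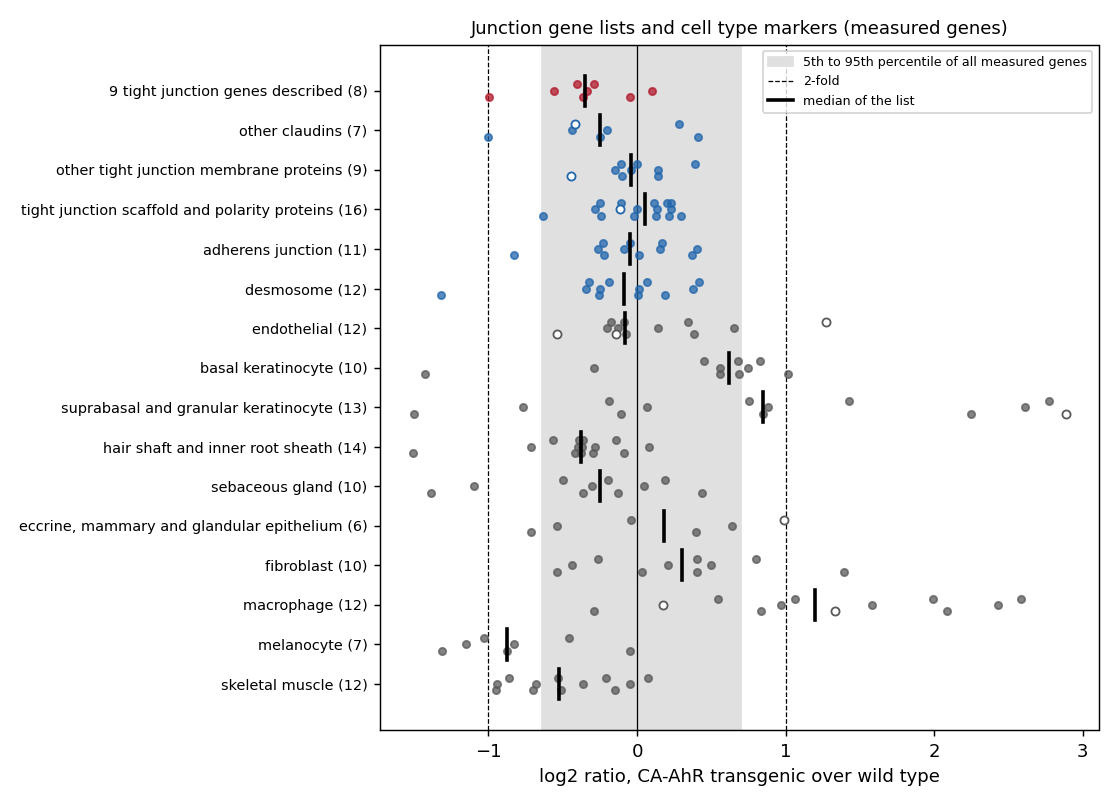
Log2 ratio of each measured gene in the junction lists (red for the 9 tight junction genes, blue for the others) and the cell type marker lists (grey), with the number of measured genes in brackets, open circles for bounds and a black bar at each median. The 9 tight junction genes have a median of -0.35, the scaffold and polarity genes 0.06, the suprabasal keratinocyte markers 0.85 and the hair markers -0.38.

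Cell type markers differed in both directions on the same arrays, and their part in the claudin signals was not tested. Keratinocyte markers were mostly higher in transgenic skin, and none of the 23 on these arrays lay below the floor on both. The 10 basal markers had a median log2 ratio of 0.62 and a summed signal of 8948 (transgenic) against 6494 (wild type), from the integrin gene Itgb4 (1.02) to the keratin gene Krt15 (-1.43). The 13 measured suprabasal and granular markers of 17 listed had a median of 0.85 and a sum of 18862 (transgenic) against 8790 (wild type), from the protease gene Casp14 (at least 2.89) to the envelope gene Ivl (-1.50).

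Marker lists of hair and sebaceous gland had medians below 0. The 14 measured hair shaft and inner root sheath markers of 17 had a median of -0.38 and a sum of 30036 (transgenic) against 37337 (wild type), from Krt71 (0.08) to Krt84 (-1.51). The 10 measured sebaceous markers of 15 had a median of -0.25 and a sum of 5612 (transgenic) against 6295 (wild type), from Dgat2 (0.44) to Scd3 (-1.38), with Pparg below the floor. Glandular epithelium markers had 6 measured genes of 10, a median of 0.18 and a sum of 1510.0 (transgenic) against 1291.5 (wild type), from Krt7 (at least 0.99) to Elf5 (-0.72), with Aqp5, Krt19, Spdef and Wfdc2 below the floor. The 7 measured melanocyte markers of 8 (median -0.88, sum 1438 transgenic against 2749 wild type) ran from Sox10 (-0.05) to Tyr (-1.31), and the 12 skeletal muscle markers (median -0.52, sum 5903 transgenic against 7538 wild type) from Acta1 (0.07) to Des (-0.95). Macrophage markers were higher, with a median of 1.20 over 12 genes and a sum of 2665 (transgenic) against 944 (wild type), from C1qa (2.59) to Msr1 (-0.29). The 10 fibroblast markers had a median of 0.31 and a sum of 10208 (transgenic) against 10497 (wild type), from Pdgfra (1.40) to Col1a1 (-0.54).

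**Figure D4:**
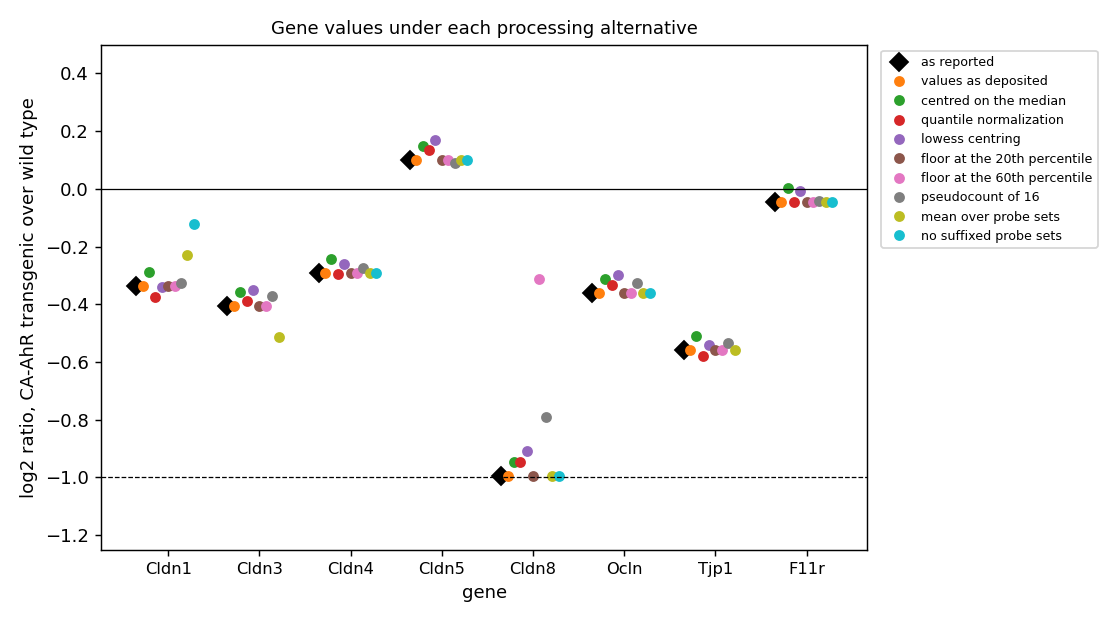
Log2 ratio, transgenic over wild type, for the 8 measured members as reported (black diamonds) and under the processing alternatives (coloured circles), with the dashed line at 2-fold lower. Cldn8 ranged from -0.995 to -0.31 and Cldn1 from -0.37 to -0.12, while Tjp1 stayed between -0.58 and -0.51 and F11r crossed 0 only after centring on the median.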

How the data were processed

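The authors' deposited table holds 1 linear signal intensity for each probe set and array, scaled by the authors before deposit: the mean signal after leaving out 2% at each end was 100.03 on both arrays. Their software is not given in the sources here. Detection calls were not used. Genotypes were read from the labels' source names. The platform annotation of 2016 pairs 20380 of the 22626 non-control probe sets with 1 gene, 691 with several and 1555 with none. Only the first with 1 gene were named, with symbols updated through the gene identifier in a table of GRCm38.p6 (29 not found kept theirs). Signals were rescaled to equal trimmed means, raised to the 40th percentile (34.7) and put on the log2 scale. Each gene took the value of its probe set of highest summed signal, and was measured when this exceeded the floor on either array. Limits were 2-fold, and 1.5-fold as an alternative. With 1 array per genotype the number of arrays limits the precision, and no test was made. The calculation was tested on simulated data, with planted differences above 2-fold in bright genes only. It therefore does not cover differences as small as those of the 9 genes. The 9 genes, the 5 other junction lists and the 10 marker lists were chosen with earlier results of these data known. Esam, Cdsn, Dsc1 and Dsg1a are each in 2 lists. Genes named are all probe sets of the 9, every measured other claudin, the 2 highest and 2 lowest of each other junction list and of the endothelial list (1 scaffold and polarity gene is not reported here), the highest and lowest of each other marker list, and Cyp1a1. Outside this rule, Cdh1, Tjp3 and genes below the floor among the other claudins and the markers were named after their values were seen. Igsf5, Ildr1, Magi1, Pard6a and Nectin1 also lay below the floor. Tools were Python 3.11.15, numpy 2.4.6, scipy 1.17.1, pandas 2.3.3, statsmodels 0.14.6 and matplotlib 3.10.9. The alternatives were the values as deposited, centring on the median, quantile normalization, lowess centring (span 0.4), a pseudocount of 16, the 20th and the 60th percentile as floor, the mean over measured probe sets, leaving out probe sets with a letter suffix, and limits of 1.5-fold and 3-fold.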

Additional observations from a re-analysis of the deposited data

How the results depend on the processing

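No paired analysis was possible because each genotype has 1 array. A value was counted as moved when it shifted by more than 0.21, the median disagreement between 2 probe sets of a gene, and a count when it shifted by more than 1.5 times. The median log2 ratio of the measured members lay between -0.35 and -0.21 under all settings run, the second value over 6 genes without suffixed probe sets. Cldn8 was a bound of at most -0.31 when the floor was set to the 60th percentile, and Cldn1 was at -0.12 without suffixed probe sets. Cldn3 probe set 1426332_a_at was a bound of at most -0.61 at the floor used. It was at a measured -1.68 when the floor was set to the 20th percentile and at -1.09 with the pseudocount. At a limit of 1.5-fold 1 member, 1 scaffold and polarity gene and 1 adherens junction gene were lower, against 0 of each at 2-fold. Among other claudins the count at least 2-fold lower was 1, and 0 after centring, quantile normalization, lowess centring, the pseudocount, leaving out suffixed probe sets or a limit of 3-fold; when the floor was set to the 60th percentile 1 gene was left, at -1.01. When the floor was set to the 20th percentile, 1 of 11 other tight junction membrane genes was at least 2-fold lower. No desmosome gene was at least 2-fold lower without suffixed probe sets or at 3-fold (0 each). Without suffixed probe sets 10 of the 12 desmosome genes were still measured, and Dsc3 and Ppl were left out. Dsc2 was among the 10, read by its other probe set and short of 2-fold. The transgenic Cldn8 signal of 44.0 lies below the 60th percentile floor of 70.7 and was raised to it. The transgenic signal of 16.5 for 1426332_a_at lies above the 20th percentile floor of 11.9. Without suffixed probe sets Cldn1 was read by 1450014_at. The remaining shifts were not examined further, beyond the genes each setting leaves out. The other 148 single-gene values and 173 counts and medians did not move by these measures.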
